A study of Mus musculus with 4 samples.

Results

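The genes described are 9 members of the complement system and its close partners: C1qa, C1qb and C1qc, which encode the chains of C1q, the central component C3, the classical pathway component C4b, the receptors C3ar1 and C5ar1, the inhibitor Serping1, and the pentraxin Ptx3. They were taken as a list by name, and 9 of 9 were present among the 19040 genes shared by the frontal cortex and midbrain tables. Cells were dissociated from brains of C57BL/6 mice aged 6 to 9 months and profiled with 10x Genomics 3′ v3 chemistry, in 4 libraries: transgenic Huα-Syn(A53T) frontal cortex, wildtype littermate frontal cortex, transgenic midbrain and wildtype midbrain. The labels name no promoter for the transgene. The design text gives 3 mice per group, the labels' mouse number is 3 for the frontal cortex libraries and 0 for the midbrain libraries, no cell is tied to a mouse, and each group was 1 library, so every difference below is between 2 libraries and carries no replicate check and no p-value.

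Complement is a cascade of secreted proteins that tags targets for removal. C1q binds a target and starts the classical pathway, C1 cleaves C4, and C3 is cleaved next. This releases C3a, which signals through C3ar1, while C5ar1 is the receptor for C5a, a fragment of C5. In the brain, C1q comes mainly from microglia and takes part in the pruning of synapses, and C4 is known from astrocytes. Serping1 encodes the C1 inhibitor, and Ptx3 is a long pentraxin of innate immunity that can bind C1q and is induced by inflammatory signals.

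The libraries held 3775 transgenic and 6239 wildtype frontal cortex cells, and 3995 transgenic and 7635 wildtype midbrain cells, with a median of 6900 to 8193 UMIs per cell (UMI, a tag that counts 1 RNA molecule). A level is given as CPM, the UMIs of a gene per 1000000 UMIs summed over the cells of a type in a library. Because 1 tag is counted per molecule, CPM needs no scaling by gene length. Intervals are 95% and cover counting error only. The authors' cell type labels were used after a check against marker genes. Cells labelled MG had 10 of 10 microglial markers at their highest in both regions, MAC had 7 of 7 border macrophage markers, and AC had 9 of 10 astrocyte markers, so these are called microglia, macrophages and astrocytes. Cells labelled OPC had 8 of 8 fibroblast markers at their highest beside 5 of 6 OPC markers in frontal cortex, and 7 of 8 fibroblast markers and 0 of 6 OPC markers in midbrain. OLG cells held 1 of 6 oligodendrocyte markers, frontal cortex CPC cells 5 of 6 olfactory ensheathing markers, and midbrain imNeur cells 6 of 6 OPC markers, so these labels are printed as deposited. Astrocytes of the frontal cortex differed in quality between genotypes, with a median mitochondrial share of 9.68% in transgenic and 5.27% in wildtype cells, and this stands beside every astrocyte result of that region. Red blood cell markers (5 genes, globins and Alas2) stood higher in the transgenic libraries: they summed to 314 CPM in transgenic and 20.1 CPM in wildtype astrocytes of frontal cortex, and to 260.5 CPM in transgenic and 47.0 CPM in wildtype astrocytes of midbrain. Endothelial cells of frontal cortex had 533 CPM in transgenic and 24.3 CPM in wildtype cells. The part of this difference in the results below was not tested. Between 3 and 15 cell barcodes were shared by any pair of libraries.

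The 3 C1q genes lie beside each other within 18.7 kb of chromosome 4 (GRCm38, 136880129 to 136898803, all on the minus strand). C3 (57203970 to 57228136) and C4b (34728380 to 34743882) are on chromosome 17. C3ar1 is on chromosome 6 (122847138 to 122856161), C5ar1 on chromosome 7 (16246743 to 16259540) and Serping1 on chromosome 2 (84765387 to 84775444), all minus strand. Ptx3 is on the plus strand of chromosome 3 (66219910 to 66225805). These spans cover whole protein-coding genes, since the counts do not resolve exons.

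The promoters of Ptx3 and C1qb are shown because these genes stood at the ends of the pattern described below, Ptx3 being an astrocyte gene with a large difference between genotypes and C1qb a microglial gene with a small one. Each run is the 250 bases before the RefSeq start of the gene (GRCm38.p6), read in the direction of the gene, and 6 of the 9 genes had an entry in the promoter table. The Ptx3 window is chr3:66219637-66219886 on the plus strand and the C1qb window chr4:136886201-136886450 on the minus strand. Capitals mark matches to motifs searched on both strands.
Ptx3: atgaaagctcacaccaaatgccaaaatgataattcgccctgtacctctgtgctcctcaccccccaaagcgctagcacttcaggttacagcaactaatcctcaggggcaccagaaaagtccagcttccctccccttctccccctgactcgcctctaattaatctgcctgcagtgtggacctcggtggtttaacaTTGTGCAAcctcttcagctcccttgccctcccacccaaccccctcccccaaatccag
C1qb: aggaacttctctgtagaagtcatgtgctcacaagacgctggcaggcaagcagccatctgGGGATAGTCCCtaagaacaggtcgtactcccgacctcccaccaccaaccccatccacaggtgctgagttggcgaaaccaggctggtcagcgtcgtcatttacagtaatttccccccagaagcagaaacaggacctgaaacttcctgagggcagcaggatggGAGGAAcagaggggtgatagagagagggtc
In Ptx3, the capitals are a match to the C/EBP motif TTGCNNAA, on the other strand and 57 bases before the start, and 9.56% of 32851 windows of the same length held this motif. In C1qb, the first capitals are 2 overlapping matches, 1 on each strand, to an NF-kB motif of GGG and CC with 5 bases of any kind between them, which 45.8% of windows held. The second capitals in C1qb match the PU.1 motif GAGGAA, 30 bases before the start, which 23.3% of windows held. The AP-1 motif TGANTCA (6.75% of windows) and the STAT motif TTCNNNGAA (7.02%) were in neither run. A match describes the letters of a window and is not evidence of binding.

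Each gene had its own main source. The C1q genes and both receptors were genes of microglia and macrophages, and C4b of macrophages, astrocytes and some smaller labels. Serping1 was a gene of fibroblast-marked cells, OLG cells and vascular mural cells, Ptx3 of astrocytes and C3 of ependymal cells. By the median of the libraries, C1qa was highest in microglia (6468 to 7978.5 CPM), then in macrophages (4849 to 6378 CPM), and these ranges did not overlap. Every other label lay far lower, led by mNeur cells at 51.1 to 1004 CPM, a range that overlapped those of the labels after it. The same order held for C1qb and C1qc.

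C3ar1, the receptor for the C3a fragment, was at 241 to 290 CPM in macrophages and 221 to 238 CPM in microglia. C5ar1, the receptor for C5a, was at 138 to 269.5 CPM in macrophages and 64.4 to 99.6 CPM in microglia, again without overlap. MNC cells, which held 9 of 11 blood leukocyte markers in frontal cortex and 11 of 11 in midbrain, came next for both receptors by the median. Their UMIs were all from midbrain, as frontal cortex MNC cells held 0 of either gene. For C3ar1 this rests on 8 UMIs, with a median of 7.32 CPM against 7.30 CPM in mNeur cells and overlapping ranges. C4b was at 151 to 249 CPM in macrophages, 43.3 to 119 CPM in OPC cells and 38.5 to 91.0 CPM in astrocytes, the last of these overlapping. It was also high in frontal cortex CPC cells, which carried olfactory ensheathing markers, at 134 CPM in the 27 transgenic cells and 142 CPM in the 73 wildtype cells (38 and 93 UMIs), against 1.20 to 1.67 CPM in midbrain CPC cells. TNC cells of midbrain had 29.9 CPM in transgenic and 76.6 CPM in wildtype cells (6 and 30 UMIs). Its near-identical neighbour C4a was in neither table, so reads shared by the pair cannot be told apart, and every C4b value is uncertain to that degree. Serping1 was at 238 to 734 CPM in OPC cells, 149 to 205 CPM in wildtype OLG cells, 147 to 171 CPM in smooth muscle cells (SMC) and 32.0 to 63.7 CPM in pericytes (PC). OPC cells lay above the others without overlap, whereas OLG and smooth muscle cells overlapped.

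**Figure D1:**
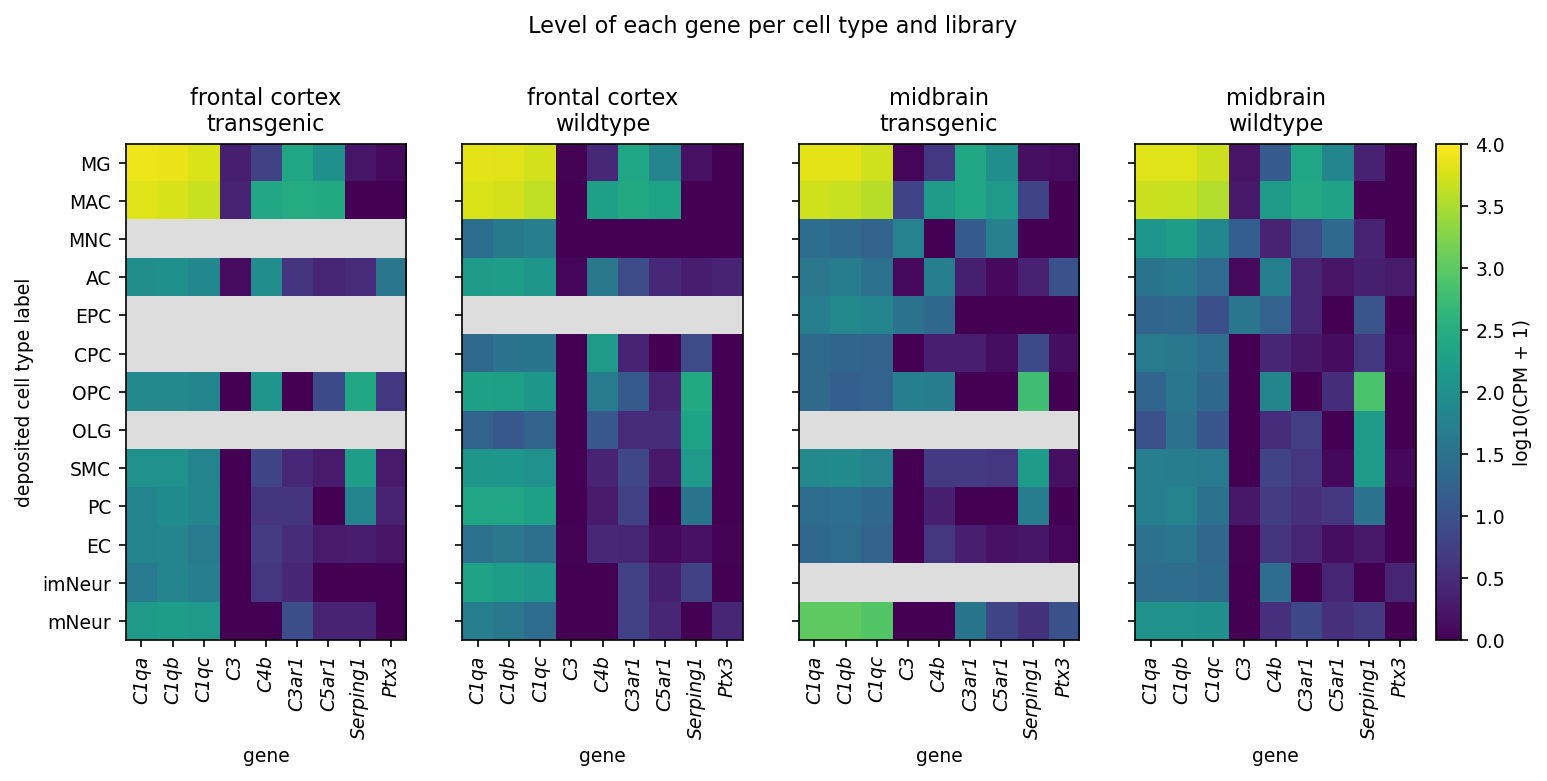
Level of each gene (columns) in each deposited cell type label (rows) of the 4 libraries, as log10(CPM + 1) in colour, with grey where a label had under 30 cells. The C1q genes are brightest in MG and MAC of every library, Serping1 in OPC, SMC and OLG, and Ptx3 stands out in AC of the transgenic frontal cortex.

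C1q was the most abundant product among these genes, and its level in microglia was close between genotypes. C1qa was at 7978.5 CPM in transgenic and 6858 CPM in wildtype microglia of frontal cortex, a log2 ratio of 0.22 (0.21 to 0.23). C1qb was at 7671 CPM in transgenic and 6706 CPM in wildtype microglia there (0.19, 0.18 to 0.21). C1qc was at 5853 CPM in transgenic and 5336 CPM in wildtype microglia (0.13, 0.12 to 0.15). All 3 chains were thus slightly higher in the transgenic library, by less than 1.5 times. In midbrain, the C1qa level was 6959 CPM in transgenic and 6468 CPM in wildtype microglia (0.11, 0.09 to 0.12). For C1qb the values were 6880 CPM in transgenic and 6440 CPM in wildtype (0.10, 0.08 to 0.11), and for C1qc 5218 CPM in transgenic and 4856 CPM in wildtype (0.10, 0.08 to 0.12).

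The small excess of C1qa was seen in every microglial cluster of the authors, 4 in each region. The ratio of C1qa was 0.46 (0.41 to 0.52) in frontal cortex cluster 8 and 0.40 (0.31 to 0.49) in midbrain cluster 16, against 0.13 to 0.18 in the other 3 frontal cortex clusters. In midbrain cluster 2, which held 489 transgenic and 728 wildtype cells, it was 0.03 (0.01 to 0.06). Almost every microglial cell carried C1qa: after each cell was thinned to 3000 UMIs, 99.9% to 100% had at least 1 UMI. In macrophages C1qa was at 6378 CPM in transgenic and 5898 CPM in wildtype cells of frontal cortex (0.11, 0.05 to 0.17), and at 5102 CPM in transgenic and 4849 CPM in wildtype cells of midbrain (0.07, 0.01 to 0.14). The chains kept near-constant proportions, with 0.962 to 0.996 C1qb UMIs and 0.734 to 0.778 C1qc UMIs per C1qa UMI in microglia of the 4 libraries.

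Outside microglia and macrophages, C1q UMIs by the median followed the amount of other microglial RNA in the cells, with a wide spread over labels. Within a library, the level that carried-over microglial RNA would give was computed from the C1q level of microglia and the level of other microglial markers in the receiving cells. In astrocytes, the observed C1qa level was 0.743 to 0.98 times this computed level in the 4 libraries. The observed C1qb level was 0.918 to 1.11 times, and C1qc 0.729 to 1.03 times. Over the 38 type and library columns other than microglia and macrophages, the median was 0.768 for C1qa, 0.899 for C1qb and 0.827 for C1qc. The 2 receptors had medians of 1.04 for C3ar1 and 0.751 for C5ar1. The highest C5ar1 value, 17.03 times, was that of transgenic midbrain MNC cells, in which C5ar1 was at 53.9 CPM. Macrophages lay well above the line for both C1qa and C5ar1.

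**Figure D2:**
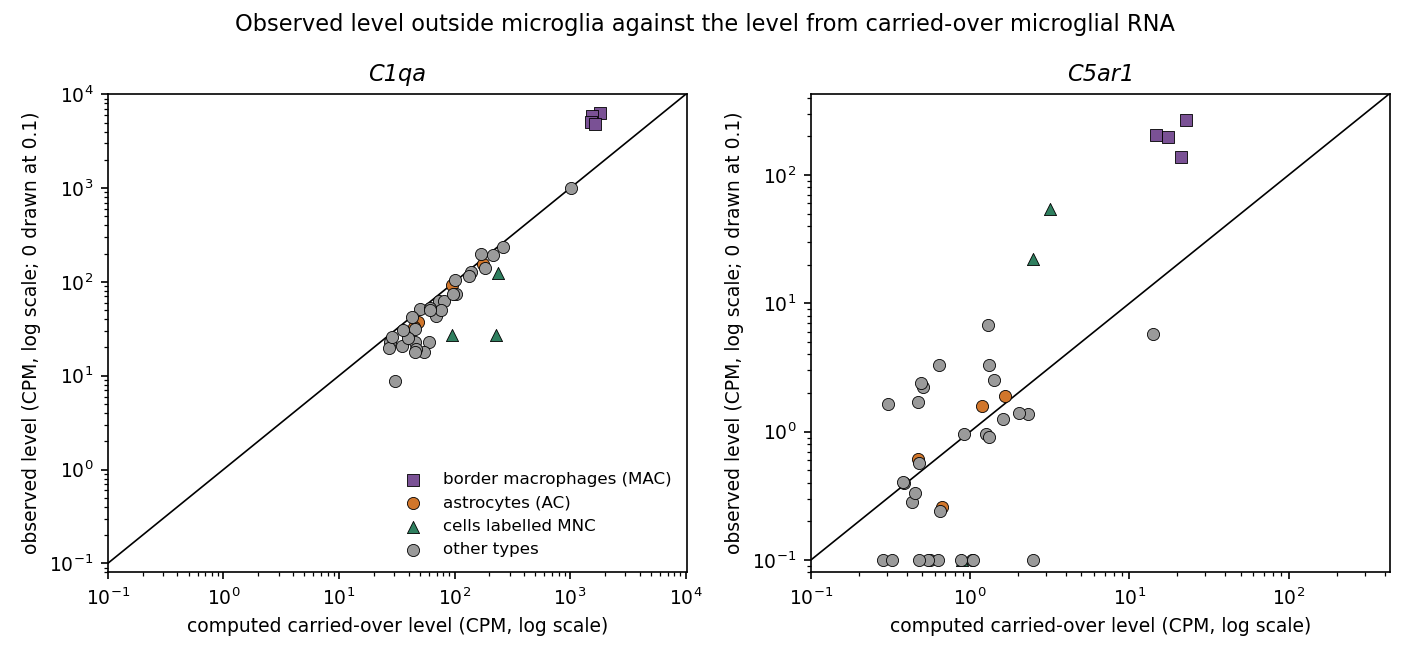
Observed CPM (vertical, log scale) against the CPM computed for carried-over microglial RNA (horizontal, log scale) of C1qa and C5ar1, 1 point per cell type label and library, with the line of equality. Astrocytes and most other labels lie near the line for C1qa, macrophages lie above it in both panels, and MNC of midbrain lies above it for C5ar1.

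The C1q level of astrocytes differed between genotypes in frontal cortex, in the same direction as that of microglial markers. C1qa was at 93.4 CPM in transgenic and 157 CPM in wildtype astrocytes of frontal cortex (log2 ratio -0.75, -0.88 to -0.61). C1qb was at 102 CPM in transgenic and 167 CPM in wildtype astrocytes (-0.71), and C1qc at 72.2 CPM in transgenic and 129 CPM in wildtype (-0.84). The 10 microglial markers, none of them at 0, summed to 392 CPM in transgenic and 815 CPM in wildtype astrocytes. A small number of cells held a large share of these UMIs: 7 transgenic astrocytes with at least 20 C1q UMIs carried 755 of 1868 (40.4%), and 23 wildtype astrocytes carried 2958 of 3847 (76.9%). Each of these cells also held at least 4 UMIs of microglial markers. Without them, an alternative chosen after seeing the data, the ratio of C1qa in frontal cortex astrocytes was 0.67, of the opposite sign. The cells left out were picked by their C1q UMIs, so this change of sign does not test where those UMIs came from. In midbrain astrocytes, where the microglial markers summed to 219 CPM in transgenic and 203 CPM in wildtype cells, C1qa was at 37.3 CPM in transgenic and 33.2 CPM in wildtype cells (0.17, -0.02 to 0.35).

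Endothelial cells (EC) serve as a background, since C1q is not an endothelial product. C1qa was at 61.9 CPM in transgenic and 31.6 CPM in wildtype endothelial cells of frontal cortex (log2 ratio 0.97), beside microglial markers at 272 CPM in transgenic and 205 CPM in wildtype cells. In midbrain C1qa was at 20.7 CPM in transgenic and 30.4 CPM in wildtype endothelial cells (-0.56), beside 138 CPM of microglial markers in transgenic and 147 CPM in wildtype. The highest level outside microglia and macrophages was that of mNeur cells of the transgenic midbrain, with C1qa at 1004 CPM, against 114 CPM in wildtype mNeur cells. There, 5 of 39 cells held 976 of the 995 C1q UMIs. After thinning to 3000 UMIs, 15.6% of transgenic and 12.6% of wildtype astrocytes of frontal cortex had a C1qa UMI, and 15.7% of transgenic and 9.48% of wildtype endothelial cells. The astrocyte share was close to the endothelial share in transgenic cells and above it in wildtype cells. Among astrocytes the share was higher in the transgenic library, whereas the CPM given above was lower. The source of these UMIs was not tested.

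The 2 receptors behaved differently in microglia. C3ar1 was alike in both genotypes, at 229 CPM in transgenic and 228 CPM in wildtype microglia of frontal cortex (log2 ratio 0.01, -0.07 to 0.08). In midbrain it was at 238 CPM in transgenic and 221 CPM in wildtype microglia (0.11, 0.01 to 0.21). After thinning, 45.9% of transgenic and 45.4% of wildtype frontal cortex microglia had a C3ar1 UMI, against 0.765% of transgenic and 0.558% of wildtype endothelial cells. C3ar1 in macrophages was at 290 CPM in transgenic and 271 CPM in wildtype cells of frontal cortex, and at 241 CPM in transgenic and 259 CPM in wildtype cells of midbrain, with intervals of the ratio that held 0.

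C5ar1 was higher in transgenic microglia. In frontal cortex it was at 99.6 CPM in transgenic and 64.4 CPM in wildtype microglia (1046 and 916 UMIs, log2 ratio 0.63, 0.50 to 0.76). In midbrain it was at 95.6 CPM in transgenic and 68.2 CPM in wildtype microglia (620 and 522 UMIs, 0.49, 0.32 to 0.66). The difference was in the same direction in both regions, but it passed 1.5 times in frontal cortex alone. By cluster, the frontal cortex ratio was 0.76 in clusters 2 and 3, 0.30 (-0.01 to 0.61) in cluster 7 and 0.27 (-0.31 to 0.86) in cluster 8. In midbrain it was 0.54 (0.35 to 0.72) in cluster 2, 0.11 (-0.40 to 0.62) in cluster 15 and 0.03 (-1.11 to 1.07) in cluster 16, while cluster 21 held 7 transgenic and 2 wildtype UMIs. The ratio was largest in the clusters with most UMIs. The intervals of the other clusters were wider, so these values do not show which clusters carried the difference. Red blood cell markers in microglia summed to 709 CPM in transgenic and 44.1 CPM in wildtype cells of frontal cortex, and to 1699.6 CPM in transgenic and 47.4 CPM in wildtype cells of midbrain, and their part in the C5ar1 values was not tested.

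The share of microglia with a C5ar1 UMI after thinning was 22.4% in transgenic and 16.4% in wildtype cells of frontal cortex, and 18.8% in transgenic and 16.7% in wildtype cells of midbrain. In endothelial cells it was 0.0929% to 0.441% over the 4 libraries. The frontal cortex ratio was below 1.5 times when cells with at least 4 UMIs of other types' markers were left out (0.53) and when clusters were weighted alike (0.57), and the midbrain ratio was 0.20 in the first case. Leaving those cells out kept 292 of 1445 transgenic and 628 of 1912 wildtype microglia of frontal cortex. In midbrain it kept 321 of 806 transgenic and 487 of 1158 wildtype microglia. Macrophages went in opposite directions in the 2 regions, with C5ar1 at 269.5 CPM in transgenic and 205 CPM in wildtype macrophages of frontal cortex (0.40, 0.09 to 0.70), and at 138 CPM in transgenic and 198 CPM in wildtype macrophages of midbrain (-0.52, -0.92 to -0.13). These rest on 85 and 112 cells in frontal cortex and on 70 and 157 in midbrain. In midbrain MNC cells C5ar1 had 12 transgenic and 15 wildtype UMIs (53.9 and 22.0 CPM).

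**Figure D3:**
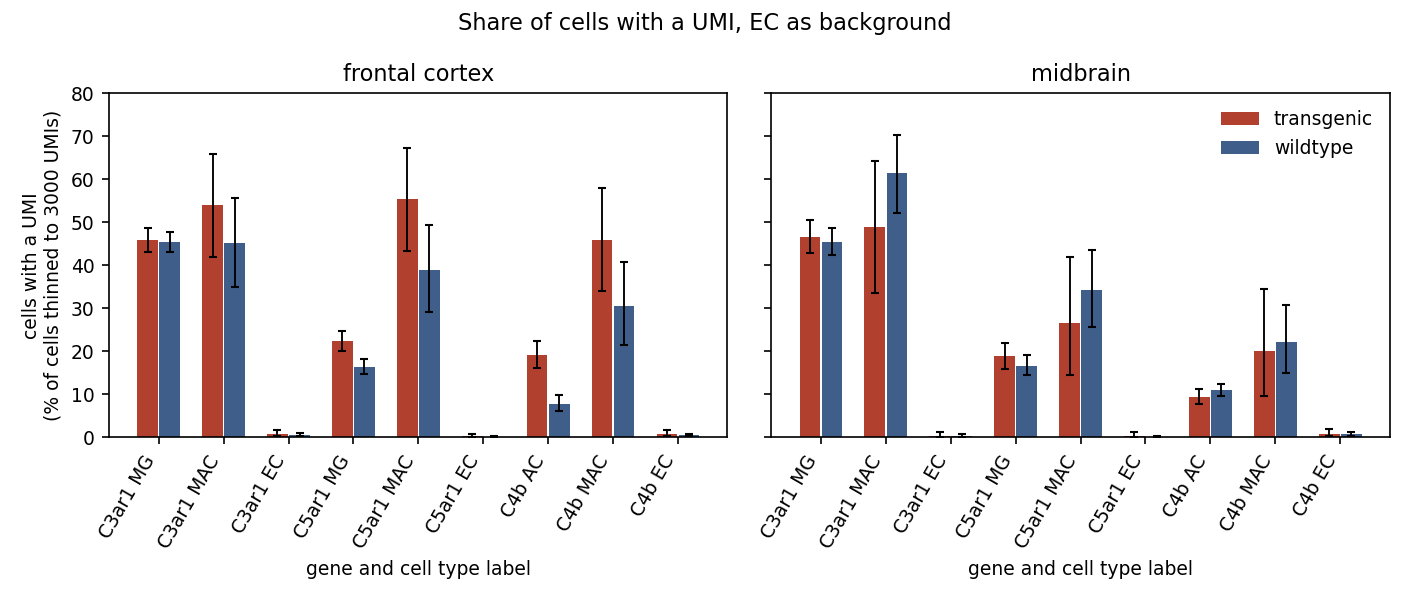
Share of cells with at least 1 UMI after thinning each cell to 3000 UMIs, for C3ar1, C5ar1 and C4b in their source types and in endothelial cells (EC) as background, with exact binomial 95% intervals. C5ar1 in MG and C4b in AC of frontal cortex have the transgenic bar above the wildtype bar without overlapping intervals, and EC bars are near 0.

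C4b was higher in transgenic astrocytes of the frontal cortex and not in those of the midbrain. In frontal cortex it was at 91.0 CPM in transgenic and 38.5 CPM in wildtype astrocytes (635 and 327 UMIs, log2 ratio 1.24, 1.05 to 1.44). In midbrain it was at 51.7 CPM in transgenic and 52.8 CPM in wildtype astrocytes (596 and 870 UMIs, -0.03, -0.18 to 0.12). The 2 log2 ratios differed by 1.27, with a counting error of 0.125 (SE), which has no replicate behind it. The transgenic frontal cortex was thus the highest of the 4 libraries. After thinning, 19.2% of transgenic and 7.84% of wildtype frontal cortex astrocytes had a C4b UMI, against 9.41% of transgenic and 11% of wildtype midbrain astrocytes. In endothelial cells these shares were 0.893% in transgenic and 0.511% in wildtype frontal cortex. Without thinning, 32.5% of transgenic and 16.4% of wildtype frontal cortex astrocytes had one, at median depths of 6638.5 and 7983 UMIs.

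Within the authors' astrocyte clusters, C4b did not differ uniformly. In frontal cortex cluster 1, the largest, it was at 77.9 CPM in transgenic and 29.0 CPM in wildtype cells (1.43, 1.16 to 1.69). In cluster 4, whose median depth was 2287 UMIs in transgenic and 1819 in wildtype cells, it was at 74.5 CPM in transgenic and 44.1 CPM in wildtype cells (0.76, 0.05 to 1.51). In cluster 22 it was at 72.1 CPM in transgenic and 25.6 CPM in wildtype cells (1.495, 0.38 to 2.76). In cluster 11 the value went the other way, at 128 CPM in transgenic and 164 CPM in wildtype cells (-0.36, -0.72 to 0.003), with an interval that held 0. Under an alternative the ratio in cluster 11 was 1.36, of the opposite sign. Cluster 11 had the highest C4b of the frontal cortex clusters in both genotypes, and it held 116 of 868 transgenic and 34 of 1067 wildtype astrocytes. C4b ranked 51 by fold among the genes that set cluster 11 apart, so its ratio there is close to a description of the cluster. With clusters weighted alike, the frontal cortex ratio was 0.42, below 1.5 times, and among cells under 5% mitochondrial UMIs it was 1.82.

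The flat midbrain total hid clusters that differed in both directions. Clusters 1 and 3 had low levels, at 24.3 CPM in transgenic and 24.2 CPM in wildtype cells of cluster 1 and at 28.3 CPM in transgenic and 20.4 CPM in wildtype cells of cluster 3. Cluster 10 was higher in transgenic cells, at 174 CPM against 81.3 CPM in wildtype cells (1.10, 0.80 to 1.40). Cluster 22 was at 224 CPM in transgenic and 71.9 CPM in wildtype cells, from 21 and 10 UMIs (1.64, 0.49 to 2.89). Cluster 4 was lower in transgenic cells, at 88.2 CPM against 224 CPM in wildtype cells (-1.34, -1.92 to -0.80), and cluster 5 slightly so, at 62.1 CPM in transgenic and 81.9 CPM in wildtype cells (-0.40, -0.69 to -0.12). Clusters 4 and 22 were shallow, with medians of 1312 to 1423 UMIs per cell.

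C4b in other cell types was less clear. In macrophages it was at 249 CPM in transgenic and 189 CPM in wildtype cells of frontal cortex (0.40, 0.08 to 0.72), and at 151 CPM in both genotypes of midbrain (0.00, -0.40 to 0.39). In midbrain, 10 transgenic macrophages held 66 of the 82 C4b UMIs, and 10 wildtype macrophages 77 of 170. Astrocyte markers in macrophages summed to 450 CPM in transgenic and 137 CPM in wildtype cells of frontal cortex, and to 420 CPM in transgenic and 1136 CPM in wildtype cells of midbrain, and their part in the C4b values was not tested. In frontal cortex OPC cells it was at 119 CPM in transgenic and 43.3 CPM in wildtype cells (1.46), but 1 transgenic cell held 19 of the 35 UMIs. In microglia it was low, at 5.05 CPM in transgenic and 1.90 CPM in wildtype cells of frontal cortex, and at 3.39 CPM in transgenic and 13.3 CPM in wildtype cells of midbrain. Astrocyte markers in microglia moved the same way, summing to 667 CPM in transgenic and 336 CPM in wildtype cells of frontal cortex and to 419 CPM in transgenic and 837 CPM in wildtype cells of midbrain. In the wildtype midbrain, 10 microglial cells held 79 of the 102 C4b UMIs. The part of astrocyte RNA in these values was not tested beyond this.

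Ptx3 was nearly limited to transgenic astrocytes, and it had the largest ratio among the 9 genes in astrocytes of both regions. In frontal cortex astrocytes it was at 36.1 CPM in transgenic and 1.41 CPM in wildtype cells (252 and 12 UMIs, log2 ratio 4.68, 3.85 to 5.65). In midbrain astrocytes it was at 9.20 CPM in transgenic and 0.972 CPM in wildtype cells (106 and 16 UMIs, 3.24, 2.48 to 4.10). Both intervals lay far above 0, and the midbrain level was under 20 CPM in both libraries. The ratios of the 2 regions differed by 1.43 with a counting error of 0.576 (SE). Microglia carried 3 Ptx3 UMIs in transgenic and 0 in wildtype frontal cortex, and 2 in transgenic and 0 in wildtype midbrain. The floor of 3 UMIs is a level of 0.211 CPM in wildtype microglia of frontal cortex and 0.392 CPM in those of midbrain.

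The gene was concentrated in few cells. In frontal cortex, 81 of 868 astrocytes (9.33%) carried a Ptx3 UMI in the transgenic library and 10 of 1067 (0.937%) in the wildtype library, and in midbrain 25 of 1512 (1.65%) in the transgenic and 11 of 2644 (0.416%) in the wildtype library. After thinning, the frontal cortex shares were 5.20% in transgenic and 0.461% in wildtype cells. Before thinning, endothelial cells of frontal cortex held 5 transgenic and 1 wildtype Ptx3 UMIs. In the transgenic frontal cortex, 16 cells had at least 5 UMIs, the top cell held 37 of 252 UMIs and the top 10 cells held 116. In the transgenic midbrain the top 10 cells held 91 of 106.

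By cluster, Ptx3 in frontal cortex was found mainly in clusters 11 and 4. Cluster 11 held 192 UMIs in 116 transgenic cells (98.7 CPM) and 0 in 34 wildtype cells. Ptx3 ranks 4 by fold among the genes that set cluster 11 apart, so this is a description of the cluster and not a comparison. In cluster 4 there were 40 transgenic and 0 wildtype UMIs (45.2 CPM in transgenic cells), which is 7.85-fold against a floor of 3 UMIs over the wildtype cells. The lower limit of the log2 ratio was 2.61. In cluster 1 there were 20 transgenic and 11 wildtype UMIs (log2 ratio 1.78, 0.65 to 2.99), and in cluster 22 0 transgenic and 1 wildtype. In midbrain, cluster 10 held 60 transgenic and 7 wildtype UMIs, which is 53.0 CPM in transgenic and 3.13 CPM in wildtype cells (4.08, 2.95 to 5.46). Over both genotypes Ptx3 was at 19.9 CPM in cluster 10 and 2.23 CPM in other midbrain astrocytes. It was left unranked there for being just under 20 CPM, so this ratio too is best read as a description of the cluster. Cluster 22, which Ptx3 helps to define with rank 3, held 41 transgenic and 3 wildtype UMIs, and the other 4 midbrain clusters held at most 3 UMIs per library.

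**Figure D4:**
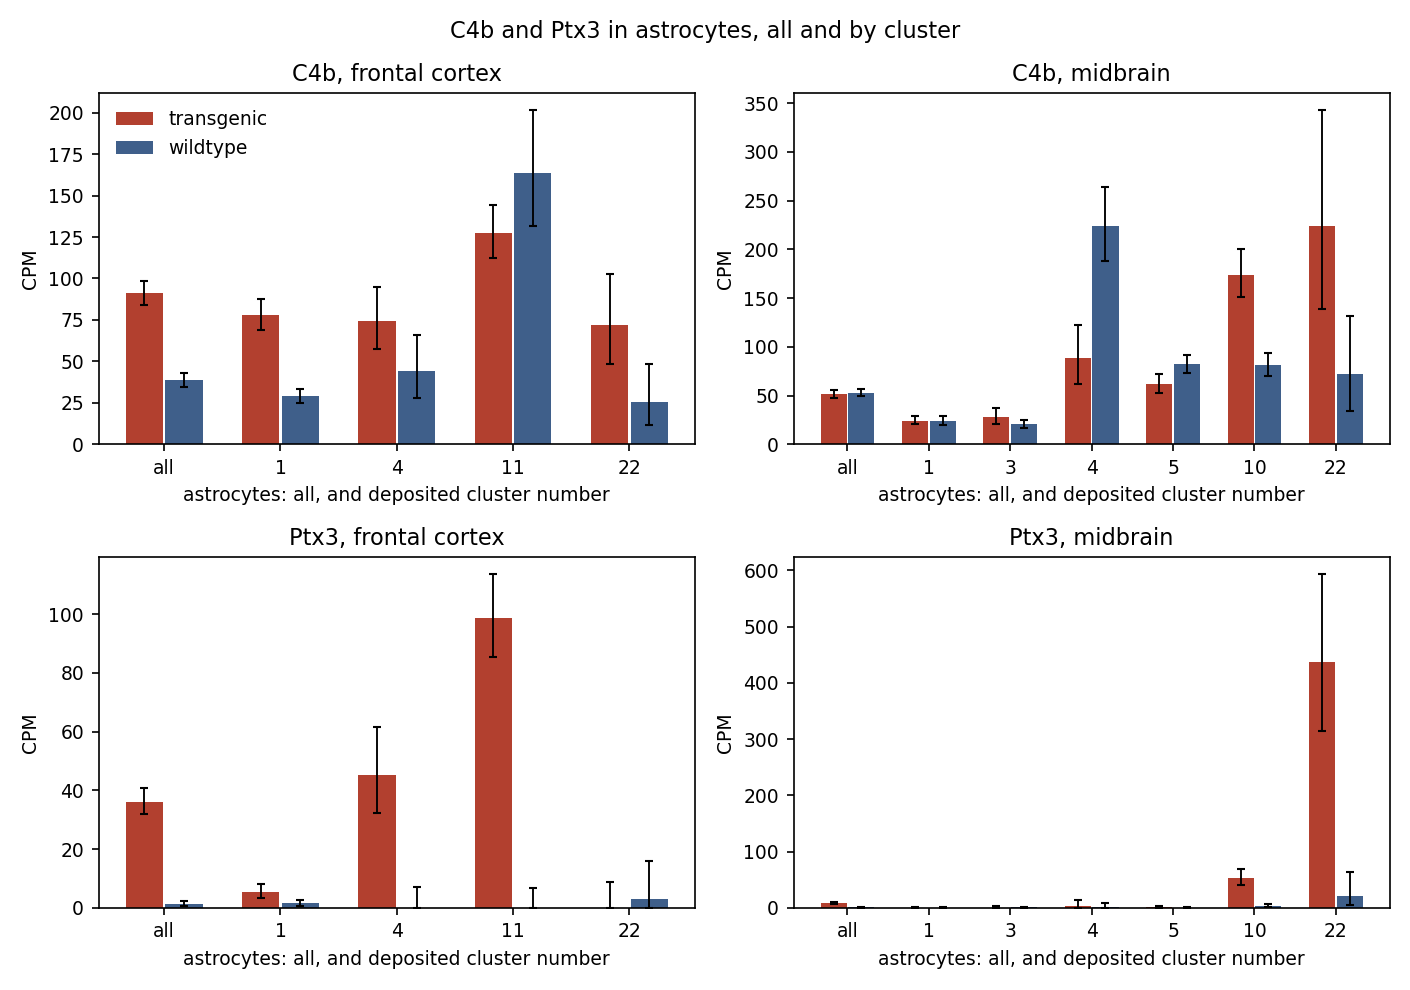
CPM of C4b (top) and Ptx3 (bottom) in all astrocytes and in each deposited astrocyte cluster of frontal cortex and midbrain, transgenic left of wildtype, with exact Poisson 95% intervals. C4b is higher in transgenic cells in frontal cortex clusters 1, 4 and 22 and lower in midbrain cluster 4, and Ptx3 is seen almost only in transgenic cells of clusters 4 and 11 of frontal cortex and 10 and 22 of midbrain.

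Over all transgenic frontal cortex astrocytes, cells with Ptx3 had more C4b and more of 3 genes of reactive astrocytes than cells without, which was not seen for C4b, Serpina3n and Cd44 in cluster 1. Of the 81 transgenic frontal cortex astrocytes with Ptx3, 50 (61.7%) had a C4b UMI, against 29.5% of those without, at median depths of 11190 and 6234 UMIs. This difference was seen in cluster 11, at 86.0% with and 65.8% without Ptx3, and in the shallow cluster 4, at 36.8% and 14.8%, but not in cluster 1, at 31.6% and 34.2%. Gfap, which encodes an intermediate filament that reactive astrocytes build up, was at 1647 CPM in cells with Ptx3 and 418 CPM in cells without. Serpina3n, a secreted protease inhibitor gene, was at 161 CPM in cells with Ptx3 and 28.8 CPM in cells without, and Cd44, the hyaluronan receptor gene, at 289 CPM and 22.7 CPM. In cluster 11, where the cells with Ptx3 were the shallower ones (median 14538 UMIs with and 18948 without), Gfap was at 1975 CPM in cells with Ptx3 and 793 CPM in cells without. In cluster 1, which held 19 of the 81 cells with Ptx3, the levels were close or lower in them: Gfap was at 224 CPM in cells with Ptx3 and 202 CPM in cells without, Serpina3n at 14.0 CPM and 15.3 CPM, and Cd44 at 9.35 CPM and 14.5 CPM. Over the wildtype frontal cortex astrocytes, Gfap was at 66.6 CPM in the 10 cells with Ptx3 and 118 CPM in cells without. In midbrain, Gfap was at 4204 CPM with and 146 CPM without Ptx3 in transgenic astrocytes. In wildtype midbrain astrocytes it was at 1226 CPM in the 11 cells with Ptx3, of which 27.3% held a Gfap UMI, and 138 CPM in cells without. Each comparison is between cells of 1 library and is a description.

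Serping1 was a gene of non-glial cells. In OPC cells, which carried fibroblast markers, it was at 238 CPM in transgenic and 271 CPM in wildtype cells of frontal cortex (log2 ratio -0.19, -0.60 to 0.22). In midbrain OPC cells it was at 585 CPM in transgenic and 734 CPM in wildtype cells (-0.33, -0.56 to -0.10). The frontal cortex value rests on few cells, since 10 of the 35 transgenic cells held 68 of 70 UMIs. In smooth muscle cells the level was steady, at 171 CPM in transgenic and 147 CPM in wildtype cells of frontal cortex (0.22, -0.04 to 0.47) and at 158 CPM in transgenic and 150.3 CPM in wildtype cells of midbrain (0.07, -0.13 to 0.26). Pericytes had 63.7 CPM in transgenic and 33.1 CPM in wildtype cells of frontal cortex (42 and 34 UMIs, 0.94, 0.26 to 1.64), and 48.3 CPM in transgenic and 32.0 CPM in wildtype cells of midbrain (0.59, -0.09 to 1.28). The direction was the same in both regions, and the midbrain interval held 0. In astrocytes Serping1 was at 1.06 to 2.15 CPM and in microglia at 0.463 to 1.31 CPM.

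C3 was close to undetected in glia. Astrocytes held 2 UMIs in transgenic and 1 in wildtype frontal cortex, and 3 in transgenic and 4 in wildtype midbrain. Microglia held 12 in transgenic and 1 in wildtype frontal cortex, and 1 in transgenic and 5 in wildtype midbrain. No ratio can be read from the astrocyte counts. The label with the highest median was the ependymal cells (EPC) of midbrain, at 32.0 CPM in transgenic and 35.9 CPM in wildtype cells (19 and 46 UMIs, log2 ratio -0.17, -1.02 to 0.63). MNC cells of midbrain had 13 transgenic and 10 wildtype UMIs, which is 58.4 CPM in transgenic and 14.6 CPM in wildtype cells. Transgenic OPC cells of midbrain had 18 UMIs, 16 of them in 1 cell, against 0 in wildtype OPC cells.

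A gene was counted as higher or lower when it differed by at least 1.5 times and reached 20 CPM in at least 1 of the 2 libraries, with no minimum of UMIs and with a count of 0 set to a floor of 3 UMIs. In frontal cortex astrocytes 5 of the 9 genes reached 20 CPM, and 2 were higher in the transgenic library (Ptx3 and C4b), where 3.6% of all 7120 genes at this level were higher. The 3 C1q genes were lower, where 2.96% of all genes were lower. The median log2 ratio of these 5 genes was -0.71, set by the C1q genes, against 0.01 over all genes. In midbrain astrocytes 0 of 4 genes passed (1.4% of all genes in either direction), with a median of 0.21 against a median near 0 for all genes. In frontal cortex microglia 1 of 5 passed, C5ar1 (higher, 1.26% of all genes), with a median of 0.19 against -0.05, and in midbrain microglia 0 of 5 passed (3.42% in either direction), with a median of 0.11 against -0.02. In macrophages 0 of 6 passed in frontal cortex, where 20.4% of all genes did, and 0 of 6 in midbrain, where 23.3% did.

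In frontal cortex endothelial cells the 3 C1q genes were higher, where 1.09% of all genes were higher, and in midbrain 0 of 2 genes passed (1.87% in either direction). In frontal cortex pericytes Serping1 was higher (7.49% of all genes were higher) and the 3 C1q genes were lower (9.47%), and in midbrain pericytes Serping1 was higher (5.47%) and C1qa and C1qb were lower (8.32%). In OPC cells of frontal cortex C4b was higher (21.9% of all genes were higher) and the 3 C1q genes were lower (18.7%). In OPC cells of midbrain C3 was higher (14.4%) and C1qb was lower (15.3%), beside large backgrounds. This C3 count rests on the 18 UMIs against 0 given above, under the 20 UMIs set for a ratio, and the C1qb ratio (5 transgenic and 30 wildtype UMIs, -1.31, -3.04 to 0.07) had an interval that held 0. In smooth muscle cells C1qc was lower in frontal cortex (5.72%) and C1qb higher in midbrain (1.74%).

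**Figure D5:**
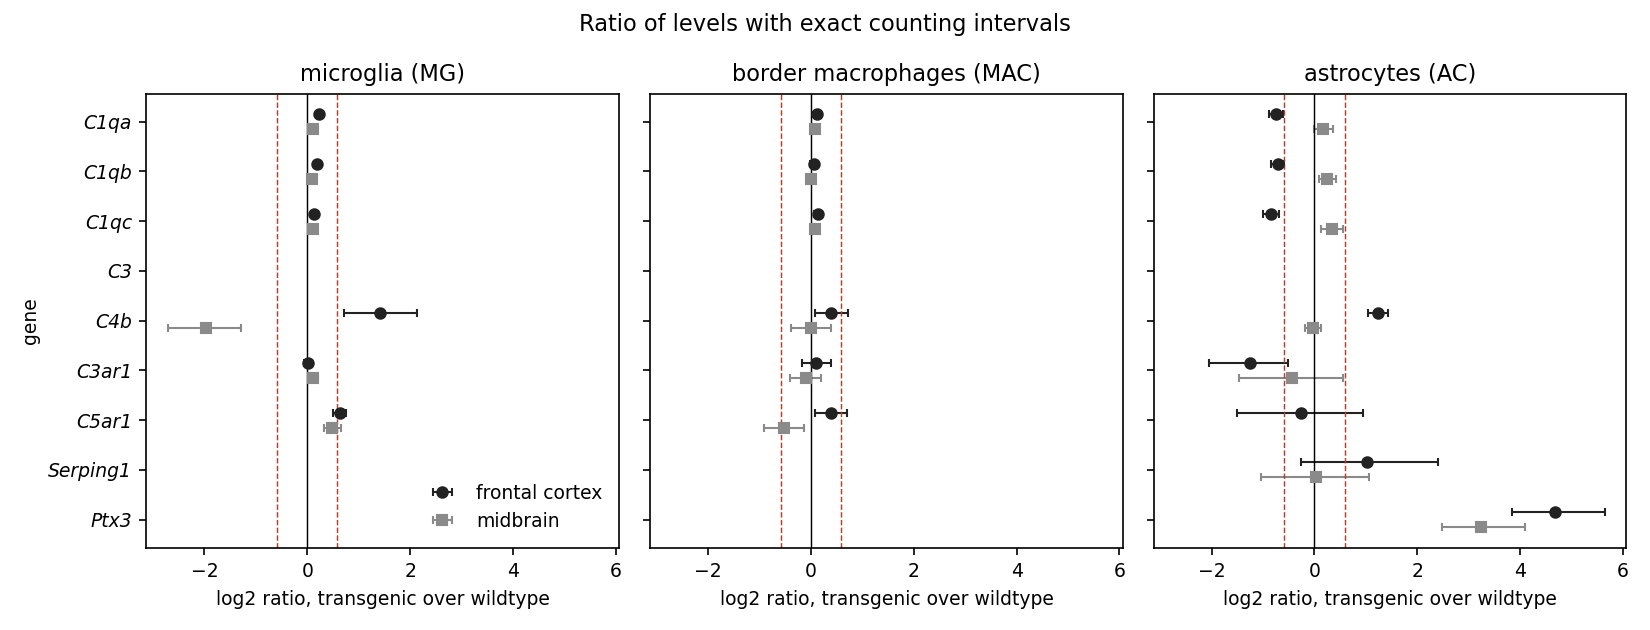
Log2 ratio of transgenic over wildtype of each gene in microglia, macrophages and astrocytes, with exact counting 95% intervals, frontal cortex as circles and midbrain as squares. Dashed lines mark 1.5 times, and genes with under 20 UMIs over both libraries are left out. C1q ratios lie near 0 in microglia and macrophages, C5ar1 is above 0 in microglia of both regions, and Ptx3 is far to the right in astrocytes of both regions.

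Between regions, microglia were alike for these genes. In transgenic microglia 0 of 5 genes passed 1.5 times between midbrain and frontal cortex (3.02% of all genes in either direction), and in wildtype microglia 0 of 5 (3.43%). The C1qa ratio of midbrain over frontal cortex was -0.20 in transgenic and -0.08 in wildtype microglia. Astrocytes differed more: 5 of 5 genes were lower in midbrain among transgenic cells (8.6% of all genes were lower), and 3 of 4, the C1q genes, among wildtype cells (7.06%). Microglial markers in astrocytes were also lower in midbrain, summing to 219 CPM against 392 CPM in frontal cortex among transgenic cells and to 203 CPM against 815 CPM among wildtype cells. Without the astrocytes holding at least 20 C1q UMIs, the wildtype count was 0. Those cells were picked by their C1q UMIs, so this count cannot test the part of microglial RNA, which was not tested. The median of the 5 was -1.22 in transgenic astrocytes, and that of all genes was near 0. For C4b, the midbrain over frontal cortex ratio was -0.81 in transgenic and 0.46 (0.27 to 0.64) in wildtype astrocytes, so the order of the regions was turned round between genotypes. Serping1 in OPC cells was higher in midbrain in both genotypes, with a ratio of 1.30 (0.90 to 1.71) in transgenic and 1.44 (1.20 to 1.68) in wildtype cells. Region and library cannot be told apart in these ratios.

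Of 51 other genes of the complement pathway and pentraxin family, 43 were in at least 1 table and 39 in both. Few reached 20 CPM: 5 in frontal cortex astrocytes, 9 in frontal cortex microglia, 6 in midbrain astrocytes and 10 in midbrain microglia. Clu, which encodes clusterin, an inhibitor of the terminal complex and an abundant astrocyte product, was at 5018 CPM in transgenic and 3225 CPM in wildtype astrocytes of frontal cortex (log2 ratio 0.64, 0.61 to 0.66). It was at 2807 CPM in transgenic and 2308 CPM in wildtype astrocytes of midbrain (0.28). Clu was the 1 gene of the list higher by 1.5 times in frontal cortex astrocytes and also the 1 in frontal cortex microglia, at 89.5 CPM in transgenic and 25.8 CPM in wildtype microglia, where astrocyte markers were higher too. Vtn, which encodes vitronectin and marks pericytes, was the 1 gene lower in frontal cortex astrocytes (15.6 CPM in transgenic, 35.3 CPM in wildtype) and the 1 lower in midbrain microglia (10.5 CPM in transgenic, 35.0 CPM in wildtype). In midbrain astrocytes 0 of 6 passed.

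Other genes that act on or with complement in microglia were close between genotypes. Itgam, a chain of complement receptor 3, was at 622 CPM in transgenic and 591 CPM in wildtype microglia of frontal cortex (0.07) and at 635 CPM in transgenic and 609 CPM in wildtype microglia of midbrain (0.06). Itgb2, the partner chain of Itgam, was at 200.5 CPM in transgenic and 193 CPM in wildtype microglia of frontal cortex (0.05) and at 227 CPM in transgenic and 197 CPM in wildtype microglia of midbrain (0.21). C5ar2, the second C5a receptor gene, was at 65.1 CPM in transgenic and 54.6 CPM in wildtype microglia of frontal cortex (0.25, 0.10 to 0.40) and at 58.5 CPM in transgenic and 41.0 CPM in wildtype microglia of midbrain (0.51, 0.29 to 0.73). C5ar2 was thus higher in transgenic microglia of both regions, as C5ar1 was, without reaching 1.5 times. Csmd3, a membrane protein gene with complement control domains, was lower, at 156 CPM in transgenic and 217 CPM in wildtype microglia of frontal cortex (-0.48, -0.57 to -0.40) and at 197 CPM in transgenic and 235 CPM in wildtype microglia of midbrain (-0.25, -0.36 to -0.15). Calr, the gene of calreticulin, which binds C1q, was at 204 CPM in transgenic and 168 CPM in wildtype astrocytes of frontal cortex (0.28, 0.17 to 0.38) and at 201 CPM in transgenic and 173 CPM in wildtype astrocytes of midbrain (0.22, 0.14 to 0.30). In microglia of midbrain, Clu was at 74.2 CPM in transgenic and 110.5 CPM in wildtype cells (-0.57), the opposite direction to frontal cortex, as were the astrocyte markers. The other listed genes at this level, C1qbp, Cr1l and Masp1, had ratios between -0.23 and 0.33 in every comparison where they reached it.

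The genes most alike to each member were found by Pearson correlation of log2(CPM + 1) over 46 columns of cell type and library, among 9761 genes (9762 for Ptx3), as a description with no p. The columns share libraries and depth. C1qa was most like C1qb (r = 0.991) and C1qc (0.991), then Trem2 (0.984), a microglial receptor gene. C3ar1 was most like P2ry6 (0.949), a nucleotide receptor gene, and C5ar1 most like Igsf6 (0.933). Serping1 was closest to Ogn (0.916) and Col1a2 (0.915), an extracellular matrix and a collagen gene. C4b was closest to Apoe (0.883), the apolipoprotein E gene, whereas Ptx3 (0.681 to Emx2os) and C3 (0.749 to Scnn1a) had lower values for their best match.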

How the data were processed

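Single-cell RNA was measured in 4 libraries, 1 per region and genotype. The authors deposited raw UMI counts for every gene in each cell, made with Cell Ranger 3.0.0 and Seurat 3.1.5 on mm10 (GRCm38), per the submitters' processing notes. Tables deposited with them list, for every cell, the percent of UMIs from mitochondrial genes, a cluster and a cell type label. The filter on cells and the handling of doublets are not given in the sources used here, and no doublet caller was run. Labels and clusters were taken as deposited.

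UMI counts were summed per type and library and scaled to CPM. Ratios have exact 95% Clopper-Pearson intervals conditional on the sum of both counts, and need 30 cells in each library and 20 UMIs over both. Shares were taken after thinning cells to 3000 UMIs. The named genes are the 9 members, the listed pathway genes that reached 20 CPM and the 5 most alike genes of each. A gene that marks an astrocyte cluster was described there only. Alternatives were edgeR 4.0.16 TMM factors, DESeq2 1.42.0 size factors, CPM over the other genes once mitochondrial and ribosomal protein genes were taken out, per-cell CPM, thinning, mitochondrial cuts, cells with other types' markers left out, the top 10 cells left out, clusters weighted alike and no filter on low genes. Computed with Python 3.11.15, numpy 2.4.6, scipy 1.17.1 and pandas 2.3.3. Some genes of the lists are not reported here. The genes, lists and rules were chosen with earlier results of these data known. The ratio was also run on counts simulated for frontal cortex astrocytes with counting error alone. There 100% of genes set to 2 times were called, and intervals held the true value for 95.7% of 6579 unchanged genes. The interval assumes the same error, so this checks the computation only. It does not show how the ratio behaves with spread between cells or mice.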

Additional observations from a re-analysis of the deposited data

Results flagged for a closer look

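For 7 pairs of gene and cell type, the log2 ratio of transgenic over wildtype had opposite signs in frontal cortex and midbrain, each with an interval that left out 0, and the difference between regions was not tested, since each group was 1 library. In astrocytes the frontal cortex ratio minus the midbrain ratio was -0.967 for C1qb and -1.18 for C1qc, beside microglial markers that summed to 392 CPM in transgenic and 815 CPM in wildtype frontal cortex astrocytes and to 219 CPM in transgenic and 203 CPM in wildtype midbrain astrocytes. In endothelial cells it was 1.53 for C1qa and 1.28 for C1qb. C1qc in smooth muscle cells differed by -1.20. For C5ar1 in macrophages it was 0.913, from a frontal cortex ratio of 0.40 and a midbrain ratio of -0.52. For C4b in microglia it was 3.38, from 1.41 in frontal cortex and -1.97 in midbrain, where astrocyte markers in microglia differed in the same directions.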

How the results depend on the processing

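Of 776 log2 ratios of single genes under an alternative, 714 had the sign of the reported value. TMM and size factors changed no count of genes past 1.5 times. In frontal cortex astrocytes the count of 5 became 2 with per-cell CPM and with thinned cells, 1 with clusters weighted alike and 3 without astrocytes holding at least 20 C1q UMIs. In midbrain astrocytes the count of 0 became 1 in cells under 5% mitochondrial UMIs (C4b), 3 with clusters weighted alike and 1 with no filter on low genes (Ptx3). In wildtype astrocytes between regions the count of 3 became 5 with no filter and 0 without the astrocytes holding at least 20 C1q UMIs. In microglia the frontal cortex count of 1 became 0 without cells holding other types' markers and with clusters weighted alike, and 2 with no filter, while the midbrain count and the wildtype count between regions went to 1 with no filter, through C4b. Among ratios past 1.5 times, the sign turned for C1qa, C1qb and C1qc in frontal cortex astrocytes. They were 0.83, 0.81 and 0.76 without cells holding at least 4 UMIs of other types' markers. That cut kept 274 of 868 transgenic and 332 of 1067 wildtype astrocytes, with medians of 2551.5 and 3938.5 UMIs per cell. It counts microglial markers, so it cannot test where the C1q UMIs came from. With clusters weighted alike the C1q ratios were 0.19, 0.13 and 0.15, and without astrocytes holding at least 20 C1q UMIs 0.67, 0.49 and 0.57. The sign also turned for C1qc in frontal cortex smooth muscle cells (0.21 thinned, 0.37 under 5% mitochondrial UMIs). Without the 10 top cells of each library, picked by their UMIs of the same gene, it turned for C1qb (0.30) and C1qc (0.66) in frontal cortex pericytes. The cause of these changes was not tested. C4b in midbrain astrocytes was between -0.59 and 0.36. Ptx3 in astrocytes was higher in the transgenic library under every alternative that left 20 UMIs and kept the top cells, at 4.05 to 5.09 in frontal cortex and 2.53 to 5.17 in midbrain, and C4b in frontal cortex astrocytes at 0.42 to 1.82. No paired analysis was possible because each group is 1 library and no cell is tied to a mouse. No library could be left out for the same reason.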
